A study of Mus musculus with 4 samples.

Results

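Epithelial cells of the gut are held together and sealed by tight junctions, adherens junctions and desmosomes. A set of 33 genes that code for the proteins of these contacts was followed in adenomas of ApcMin mice with and without Strap. The set was named by symbol and holds 11 claudins, 5 other membrane proteins and 3 plaque proteins of the tight junction, 4 genes of the adherens junction and its cadherins, 6 desmosome genes, Epcam, and 3 polarity genes. Of these 33 genes, 32 were listed in 1 or more of the 4 libraries and 30 in all 4, out of 17762 genes listed in the series. The 30 that were listed throughout passed the filter on low counts and were tested among 12769 genes.

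All 4 libraries were made from polyadenylated RNA of adenomas of C57BL/6 mice aged 110 days that carry ApcMin, a germline truncating mutation of the tumour suppressor gene Apc under which intestinal tumours form. In 2 libraries Strap is labelled wild-type (ApcMin Strap WT, called WT here), and in the other 2 it is labelled knockout (ApcMin Strap KO, called KO here), which the series' design text names StrapIEKO. Strap codes for a WD40-repeat protein first described as a partner of the TGF-beta receptors. The cells in which Strap was deleted, what drove the deletion, and whether each library came from a separate mouse are details that the sources used here do not give. Each p-value therefore measures the spread between these libraries, which may be technical.

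Tight junctions lie at the top of the side walls of the cells. Claudins form their strands, and the mix of claudins sets which ions and how much water pass between cells: Cldn2 and Cldn15 form pores for small cations, while claudins such as Cldn3, Cldn4 and Cldn8 are counted as sealing. Occludin and its relatives sit in the same strands, and zonula occludens proteins and cingulin tie them to actin. Below them E-cadherin, coded by Cdh1, binds its like on the neighbouring cell and is linked to actin through the catenins, and desmosomes link desmosomal cadherins through plakoglobin, plakophilins and desmoplakin to keratin filaments.

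Total expected counts per library lay between 14084814 and 15640931, and between 15270 and 16227 genes were listed. Strap had 157 and 112 CPM (counts scaled to a common library total with TMM factors) in WT and 20.5 and 24.8 in KO, a log2 difference of -2.57 (SE 0.26) with a Benjamini-Hochberg adjusted p of 0.0942 in edgeR's quasi-likelihood test and 8.42e-14 in DESeq2. The 15 epithelial markers summed to 18215 and 18929 CPM in WT and to 19190 and 14801 CPM in KO, lowest in KO replicate 2. Vil1 of that list lay between 1757 and 2096 CPM and was highest in KO replicate 2. The 13 listed markers of endothelium summed to between 4.29 and 57.7 CPM and the 12 of fibroblasts to between 8.26 and 18.5 CPM. Pecam1 was at most 1.29 and Col1a1 at most 1.60 CPM. The tissue label, colon adenoma, stood beside 1969 to 4707 CPM of Sis and 27.3 to 166 CPM of Gata4, which mark the small intestine, while 5 of 8 colon markers, Car1 and Aqp8 among them, did not exceed 4.22 CPM. The 8 colon markers summed to between 331 and 1351 CPM, mostly from Ang4, and without Ang4 to between 18.5 and 54.6 CPM. WT replicate 1 stood apart: all 14 listed stomach markers were highest there, with a summed level of 539 CPM against 9.47, 1.43 and 2.66 CPM in WT replicate 2 and KO replicates 1 and 2. WT replicate 2 had the highest summed colon markers, 1351 CPM where the others had 331 to 543 CPM. Without Ang4 it had 54.6 CPM where the others had 18.5 to 27.1 CPM. It also had the lowest summed small intestine markers, 9896 CPM where the others had 17217 to 21842 CPM. Whether these sums reflect gut region was not tested. KO replicate 2 had the highest summed level of T and natural killer cell markers, 284 CPM, where the others had 31.4 to 52.2 CPM.

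The genes differed widely in level. On the scale of fragments per kilobase and library size (FPKM), which allows levels of different genes to be compared per length, Epcam was the most abundant of the 30 genes listed in all libraries, with a mean of 869 over the 4 libraries. It was followed by Cldn7 at 548, Cdh17 at 533, Cldn3 at 354, Cldn15 at 264 and Cdh1 at 235 FPKM. Epcam lay above 99.3% of the 17762 genes listed in 1 or more libraries. Cldn7 and Cdh17 overlapped over the libraries, as did Cdh17 and Cldn3, Cldn3 and Cldn15, and Cldn15 and Cdh1. Compared within each library, Cdh17 was above Cldn3 in all 4, while the order of each of the other pairs changed between libraries. Cldn8, a claudin of distal colon and kidney epithelium, was the lowest of the 30, with a mean of 2.25 FPKM and a range from 0.45 to 6.00 FPKM. Apart from Cldn8, the other 29 genes had means between 14.3 FPKM, in Marveld2, and 869 FPKM.

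**Figure D1:**
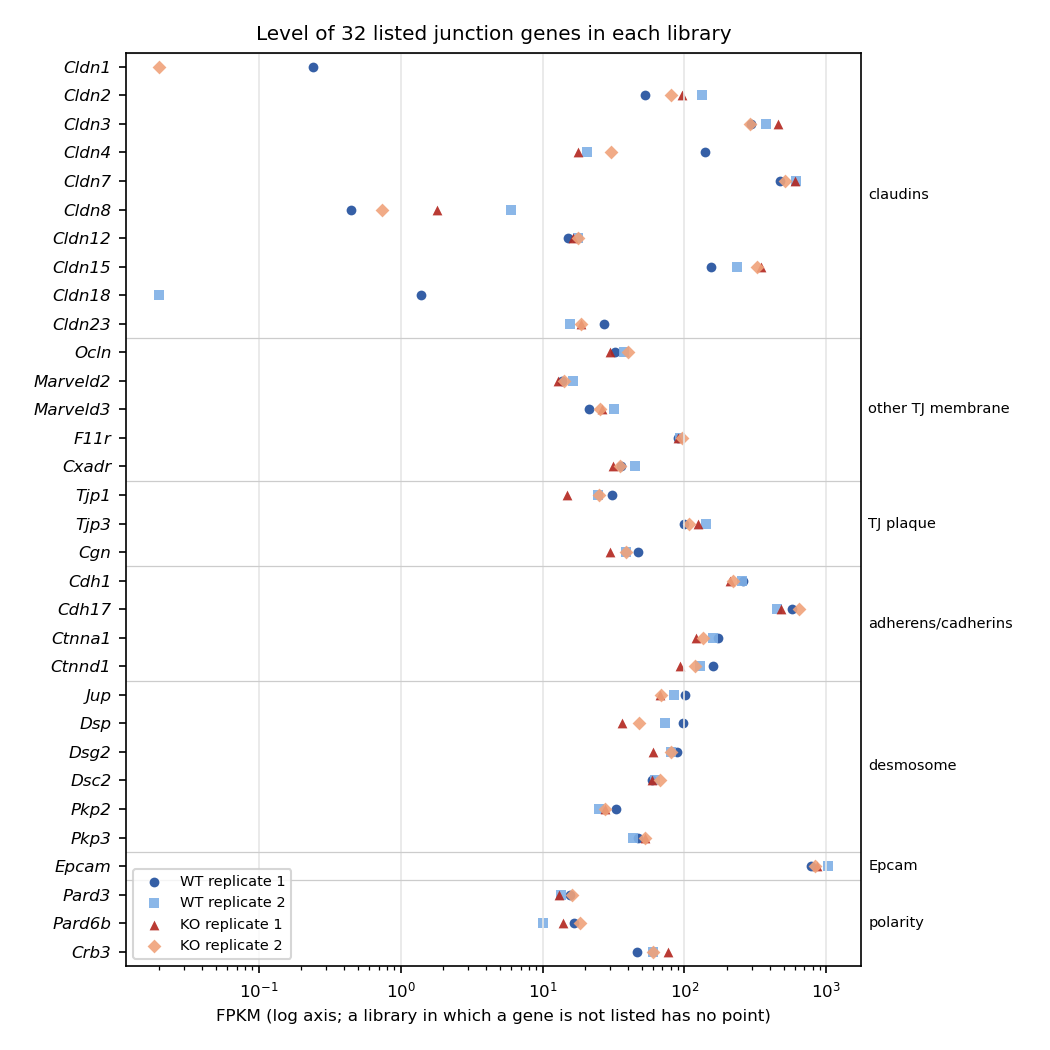
Level of the 32 listed junction genes in each library, as FPKM on a log axis, with 1 symbol per library and the genes grouped by class. Most genes form tight clusters of 4 points, while Cldn4, Cldn8, Cldn1 and Cldn18 spread widely, and Dsp and Cldn15 show the KO symbols on 1 side of the WT symbols.

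The promoters of a few members are shown because these windows carry, or lack, the E-box CACCTG that repressors of the Snail and Zeb families bind. The promoter table of RefSeq on build GRCm38.p6 matched 22 of the 33 genes, all but Cldn8, Cldn23, Marveld3, Cxadr, Cdh1, Cdh17, Ctnna1, Dsg2, Dsc2, Pkp2 and Pkp3. CACCTG or its reverse complement CAGGTG was found within 250 bases upstream of a start site in 9 of the 22 (40.9%), namely Cldn4, Cldn7, Crb3, Epcam, F11r, Ocln, Pard3, Pard6b and Tjp3, against 19.4% of all 27025 genes with an entry. These windows had a median GC content of 60.4% in the matched members and 52.4% in all genes, and no correction for base composition was made. Each line below gives the 250 bases upstream of the start site, 5′ to 3′ on the gene's strand. Every CACCTG or CAGGTG is in capitals and is called an E-box here, and other forms of E-box are not marked. Epcam (chr17:87635729-87635978, plus strand) has E-boxes 187 and 19 bases upstream, and Pard6b (chr2:168080754-168081003, plus strand) has them 141 and 86 bases upstream. Cldn4 (chr5:134946935-134947184, minus strand) has its E-box 14 bases upstream, and Cldn15 (chr5:136967619-136967868, plus strand) and Dsp (chr13:38151044-38151293, plus strand) hold none in this window.
Epcam: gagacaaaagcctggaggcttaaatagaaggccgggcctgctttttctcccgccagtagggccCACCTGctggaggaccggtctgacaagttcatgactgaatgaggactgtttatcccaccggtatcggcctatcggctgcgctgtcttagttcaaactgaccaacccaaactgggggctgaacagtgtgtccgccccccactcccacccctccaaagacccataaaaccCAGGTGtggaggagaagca
Pard6b: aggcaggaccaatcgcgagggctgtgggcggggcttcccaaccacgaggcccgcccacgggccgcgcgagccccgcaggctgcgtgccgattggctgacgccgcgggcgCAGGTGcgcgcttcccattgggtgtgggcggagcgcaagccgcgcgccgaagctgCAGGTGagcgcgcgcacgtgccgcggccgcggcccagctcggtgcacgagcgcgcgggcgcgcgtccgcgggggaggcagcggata
Cldn4: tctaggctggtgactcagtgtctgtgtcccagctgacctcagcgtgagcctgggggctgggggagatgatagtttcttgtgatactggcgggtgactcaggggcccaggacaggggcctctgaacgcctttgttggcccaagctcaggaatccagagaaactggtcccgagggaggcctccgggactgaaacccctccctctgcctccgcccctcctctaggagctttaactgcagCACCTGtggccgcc
Cldn15: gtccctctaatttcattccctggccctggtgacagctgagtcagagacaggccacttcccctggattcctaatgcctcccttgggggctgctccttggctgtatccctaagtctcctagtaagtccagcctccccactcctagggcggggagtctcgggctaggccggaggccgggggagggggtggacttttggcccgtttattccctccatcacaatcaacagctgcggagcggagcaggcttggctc
Dsp: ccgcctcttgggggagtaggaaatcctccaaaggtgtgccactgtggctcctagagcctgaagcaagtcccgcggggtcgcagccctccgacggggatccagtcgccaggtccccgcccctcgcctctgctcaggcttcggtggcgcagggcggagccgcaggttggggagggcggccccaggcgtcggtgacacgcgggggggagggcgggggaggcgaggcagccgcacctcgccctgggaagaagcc

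A match of these letters is a description and not evidence of binding. The grainyhead motif AACCNGTT, searched on both strands in the same windows, was found in Cgn and Cldn5, 2 of the 22 genes (9.09%), against 2.0% of all genes. The HNF4 motif CAAAGTCCA was found in 0 of the 22 and in 0.451% of all genes.

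The comparison of KO with WT asked whether the transcripts of cell contacts differed with Strap. None of the 30 tested genes passed an adjusted p of 0.05 in edgeR, in which 1 of 12769 genes (0.00783%) passed. At an unadjusted p under 0.05 there were 2, Dsp and Cldn15, where 15.8% of all genes had such a p. DESeq2 called 1 of the 30, Dsp, and 5.03% of all genes. The estimated difference was positive in 13 genes and negative in 17, with a median log2 difference of -0.03 against 0.00 over all tested genes. It lay within 0.25 of zero in 16 of the 30 genes, and in 19 the 95% interval stayed inside a 2-fold change in either direction. Over all 12769 tested genes these counts were 4714 and 5151.

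Each KO library exceeded each WT library in 4 of the 30 genes (13.3%): Cldn15, F11r, Dsc2 and Pkp3. The same order was seen in 25.5% of all tested genes. Each KO library was under each WT library in 10 of the 30 (33.3%): Marveld2, Cxadr, Tjp1, Cgn, Cdh1, Ctnna1, Ctnnd1, Jup, Dsp and Dsg2. This order was seen in 24.6% of all tested genes. In bulk RNA, fewer cells of a type and less RNA per cell cannot be told apart, which holds for every difference given here.

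**Figure D2:**
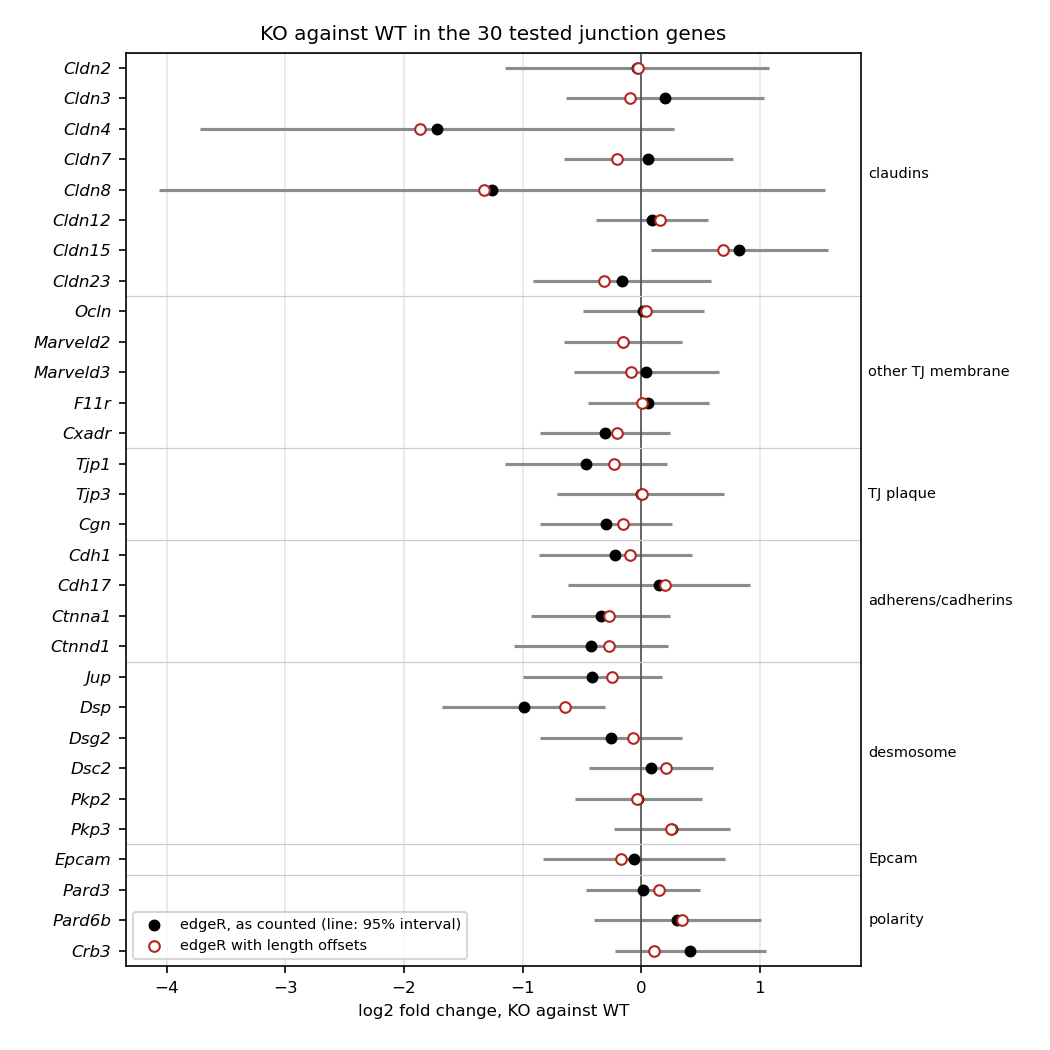
Log2 difference of KO from WT for the 30 tested junction genes, with filled points for the edgeR estimate, lines for its 95% interval (n = 2 libraries per group) and open points for the estimate with offsets for transcript length. Intervals of Dsp and Cldn15 do not cross zero, those of Cldn4 and Cldn8 are the widest, and most points lie near zero.

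Among the claudins Cldn15 (Entrez gene 60363, chromosome 5, 136967869 to 136975845), which forms cation pores in the small intestine, had the highest KO levels relative to WT. It had 275 and 422 CPM in the WT libraries and 671 and 565 CPM in the KO libraries. The groups did not overlap, and the lower KO library was above the higher WT library. The fitted level in KO was 1.77 times that in WT, a log2 difference of 0.83 (SE 0.30, 95% interval 0.08 to 1.57), with an unadjusted p of 0.0351 and an adjusted p of 0.290 in edgeR's quasi-likelihood test, so it did not pass. DESeq2 gave an adjusted p of 0.107. Leaving out each library in turn gave log2 differences between 0.53 and 1.17.

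Cldn7 and Cldn3, the most abundant claudins, showed no such order. Cldn7 had 576 and 744 CPM in WT against 779 and 597 in KO, and its log2 difference was 0.06 (SE 0.29). Cldn3 had 352 and 447 CPM in WT against 583 and 334 in KO, and its log2 difference was 0.20 (SE 0.34). In both genes KO replicate 1 was the highest library and the groups overlapped. Cldn2, the other pore-forming claudin, had 159 and 399 CPM in WT against 311 and 232 in KO, and the WT libraries enclosed the KO libraries (log2 difference -0.04, SE 0.45). Cldn12, which is broadly expressed, kept to between 55.1 and 64.6 CPM in all libraries. Cldn23 had its highest level, 48.2 CPM, in WT replicate 1 and lay between 27.5 and 35.9 CPM in the others.

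Cldn4 (Entrez gene 12740, chromosome 5, 134945123 to 134946934), a claudin of stomach, colon and many other epithelia, turned on a single library. Its level was 243 CPM in WT replicate 1, 36.2 CPM in WT replicate 2, and 33.7 and 51.1 CPM in KO replicates 1 and 2. WT replicate 2 lay between the KO libraries. The log2 difference was -1.72 (SE 0.81) with an adjusted p of 0.367 in edgeR, and it was 0.21 without WT replicate 1. Without WT replicate 2, which leaves WT replicate 1 to stand for its group, the log2 difference was -2.52.

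The same library held most of the counts of 2 low claudins. Cldn18, the claudin of gastric epithelium and lung, had 59 counts in WT replicate 1 and 1 count in WT replicate 2, and was not listed in KO. Cldn1, a barrier claudin of skin and other epithelia, had 12 counts in WT replicate 1 and 1 count in KO replicate 2, with no entry for the other 2 libraries. Both genes failed the filter and were not tested. Cldn4, Cldn18 and Cldn1 were the listed members highest in WT replicate 1 by at least 3-fold over the next library, and in that library 12 of the 14 listed stomach markers were highest by at least 3-fold, with Muc6 of gastric glands at 404 CPM against 0.137 to 3.11 CPM elsewhere. Whether material from stomach-type cells has a part in the level of these claudins was not tested. Cldn8 ran the other way, with 13.7 CPM in WT replicate 2 against 1.03 CPM in WT replicate 1 and 4.51 and 1.64 CPM in KO (log2 difference -1.26, SE 1.14). WT replicate 2 was also the library with the highest summed colon markers, and the part of gut region in the level of Cldn8 was not tested. Cldn5, the claudin of endothelium, was not listed in any library.

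The make-up of the claudin pool was also compared, as the share of each claudin in the summed FPKM of the listed claudins. That sum was 1155 and 1417 FPKM in WT and 1548 and 1273 FPKM in KO, with overlap. Cldn15 made up 13.2% and 16.6% of it in WT and 22.3% and 25.5% in KO, and the groups did not overlap. The share of the pore-forming pair Cldn2 and Cldn15 was 17.8% and 26% in WT and 28.5% and 31.8% in KO. Cldn2 alone held 4.59% and 9.42% in WT and 6.22% and 6.30% in KO, with overlap. Cldn7 held 40.7% and 43.2% in WT and 38.7% and 40.1% in KO, which puts both KO libraries below WT by a margin smaller than the distance between the WT libraries. Cldn3 overlapped at 22.8% to 29.3%, and Cldn4 took 12% in WT replicate 1 and 1.15% to 2.37% in the other libraries. The ratio of Cldn15 to Cldn7 was 0.324 and 0.384 in WT and 0.575 and 0.635 in KO. With 2 libraries against 2, an exact permutation test of a share cannot give a two-sided p under 0.333, so these shares are given without a test.

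**Figure D3:**
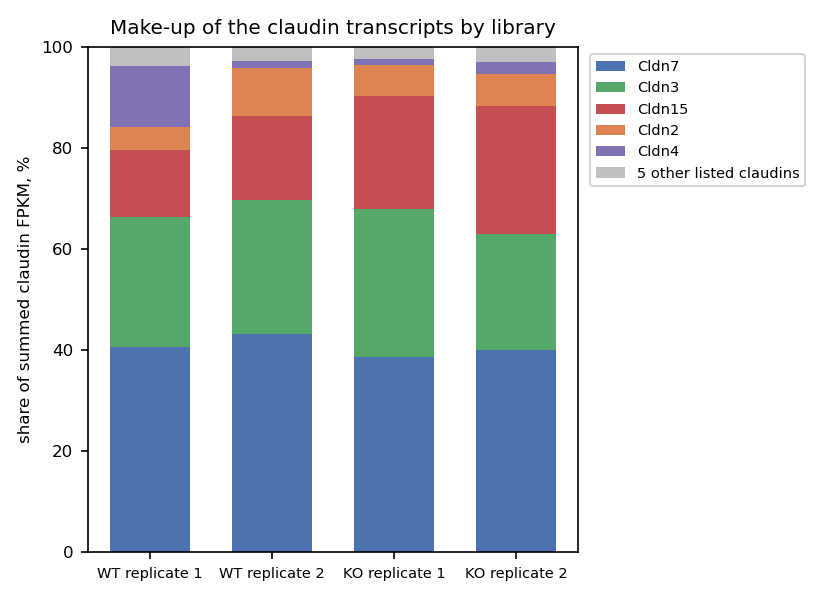
Share of each claudin in the summed FPKM of the listed claudins, in percent, with 1 bar per library. The band of Cldn15 covers 13.2% and 16.6% in WT and 22.3% and 25.5% in KO, and Cldn4 is a wide band in WT replicate 1 alone.

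The other membrane proteins of the tight junction lay close together. Ocln, which codes for occludin, had 100.4 and 117 CPM in WT against 100.3 and 120 in KO. Its log2 difference was 0.02 with a 95% interval of -0.49 to 0.53, so a 2-fold difference lay outside the interval. Marveld2, which codes for tricellulin of the corners where cells meet, had 40.0 and 48.5 CPM in WT against 39.9 and 39.6 in KO (log2 difference -0.16, SE 0.20). Marveld3 overlapped between the groups at 38.9 to 58 CPM. F11r, which codes for the adhesion molecule JAM-A, varied least among these, between 217 and 235 CPM, and its KO libraries lay above WT by a log2 difference of 0.06 (SE 0.21). Cxadr, the coxsackievirus and adenovirus receptor, had 151 and 196 CPM in WT against 143 and 136 in KO. Its log2 difference was -0.31 (SE 0.22), with an adjusted p of 0.532 in edgeR. All 5 of these genes had 95% intervals inside a 2-fold change.

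Of the 3 plaque proteins of the tight junction, 0 passed the test in edgeR or DESeq2, and in 2, Tjp1 and Cgn, both KO libraries lay below WT. Tjp1, which codes for the scaffold ZO-1, had 214 and 169 CPM in WT against 111 and 167 in KO. KO replicate 1 was the lowest, and KO replicate 2 was just under WT replicate 2. The log2 difference was -0.46 (SE 0.28), with an adjusted p of 0.459 in edgeR. Cgn, which codes for cingulin, had 232 and 189 CPM in WT against 158 and 184 in KO (log2 difference -0.30, SE 0.23). Tjp3, which codes for ZO-3, overlapped at 292 and 415 CPM in WT against 398 and 307 in KO, with a log2 difference of 0.00 (SE 0.29).

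The adherens junction genes were abundant in all libraries. Cdh1 had 1120 and 1098 CPM in WT against 978 and 930 in KO. Both KO libraries lay below WT, and the log2 difference was -0.22 with a 95% interval of -0.86 to 0.43 and an adjusted p of 0.717 in edgeR. Ctnna1, the alpha-catenin that reaches actin, had 625 and 573 CPM in WT against 469 and 477 in KO (log2 difference -0.34, SE 0.24). Ctnnd1, the p120 catenin that keeps cadherins at the surface, had 790 and 639 CPM in WT against 499.9 and 566 in KO. Its log2 difference was -0.42 (SE 0.26), with an adjusted p of 0.474 in edgeR. Cdh17, the liver-intestine cadherin, did not share this order, with 1929 and 1518 CPM in WT against 1743 and 2090 in KO, a log2 difference of 0.15 (SE 0.31). Per length, the ratio of Cdh1 to Cdh17 was 0.452 and 0.563 in WT and 0.437 and 0.346 in KO.

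Dsp (Entrez gene 109620, chromosome 13, 38151294 to 38198577), which codes for desmoplakin, the link between the desmosome and keratin filaments, had the smallest p of the members. It had 918 and 689 CPM in the WT libraries and 372 and 437 CPM in the KO libraries. Both KO libraries were well below both WT libraries, and the fitted KO level was 50.3% of WT. The log2 difference was -0.99 (SE 0.28, 95% interval -1.68 to -0.30), with an unadjusted p of 0.0126 and an adjusted p of 0.236 in edgeR's quasi-likelihood test, which it did not pass. DESeq2 gave an adjusted p of 0.00816, which it passed. Leaving out each library in turn gave log2 differences between -1.18 and -0.79.

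The other desmosome genes had smaller differences than Dsp. Jup, which codes for plakoglobin and serves desmosomes and adherens junctions, had 494 and 413 CPM in WT against 359 and 323 in KO (log2 difference -0.41, SE 0.24). Dsg2, a desmosomal cadherin, had 506 and 454 CPM in WT against 366 and 440 in KO (log2 difference -0.25, SE 0.24). Its partner Dsc2 had 264 and 281 CPM in WT against 286 and 291 in KO. Dsc2 therefore lay on the other side, by a log2 difference of 0.08 (SE 0.21). Pkp3, a plakophilin of the plaque, had 130 and 119 CPM in WT against 158 and 141 in KO (log2 difference 0.26, SE 0.20). Pkp2, its relative, overlapped at 70.3 to 91.8 CPM. Per length, the ratio of Dsp to Dsg2 was 1.09 and 0.909 in WT and 0.609 and 0.595 in KO. The ratio of Dsp to Jup was 0.965 and 0.865 in WT and 0.538 and 0.701 in KO. In both ratios the KO libraries lay below the WT libraries.

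Epcam, an epithelial adhesion protein that binds and stabilises Cldn7, had 1541 and 2016 CPM in WT against 1827 and 1584 in KO. The groups overlapped, and the log2 difference was -0.06 (SE 0.31). Per length, the ratio of Cldn7 to Epcam was 0.605 and 0.600 in WT and 0.704 and 0.618 in KO. Of the polarity genes, Crb3, the Crumbs protein of the apical membrane, had 50.3 and 65.1 CPM in WT against 90.8 and 62.9 in KO (log2 difference 0.41, SE 0.26). Pard6b, a partner of atypical protein kinase C, had 55.1 and 33.5 CPM in WT against 50.1 and 59.4 in KO (log2 difference 0.31, SE 0.29). Pard3, a scaffold at the tight junction, lay between 61.1 and 72.1 CPM with a log2 difference of 0.02 (SE 0.19). All 3 polarity genes overlapped between the groups.

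Of the 10 members with both KO libraries below WT, 8 were in the longest of 4 groups by transcript length. The most negative estimates, those of Cldn4 and Cldn8, were outside that group. Over all tested genes the difference also fell with transcript length. When the tested genes were divided into 4 groups of equal size by transcript length, the median log2 difference was 0.28 for genes of up to 1784 bases, 0.08 up to 2807 bases, -0.05 up to 4209 bases and -0.22 above that. Both KO libraries lay below WT in 12.7% of the shortest and 37.9% of the longest genes, and above WT in 37.6% and 12.8%. KO replicate 1 carried most of this: against the WT mean, its median was 0.41 in the shortest and -0.34 in the longest group, where KO replicate 2 had 0.10 and -0.08. The WT libraries also differed by length. The median of WT replicate 1 against WT replicate 2 was -0.11 in the shortest and 0.11 in the longest group. Of the 10 members in the longest group, 8 had both KO libraries below WT (Cxadr, Tjp1, Cgn, Cdh1, Ctnnd1, Jup, Dsp and Dsg2), 1 had them above (Dsc2), and Pard3 overlapped. Their median log2 difference was -0.30. Over the 30 members the rank correlation of the log2 difference with length was -0.45, and over all 12769 tested genes it was -0.33, a description across genes that share libraries. RNA quality values are not used here, and what gives rise to the trend was not tested. The FPKM shares and the ratios per length given in this report were not adjusted for this trend, which differs between libraries.

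**Figure D4:**
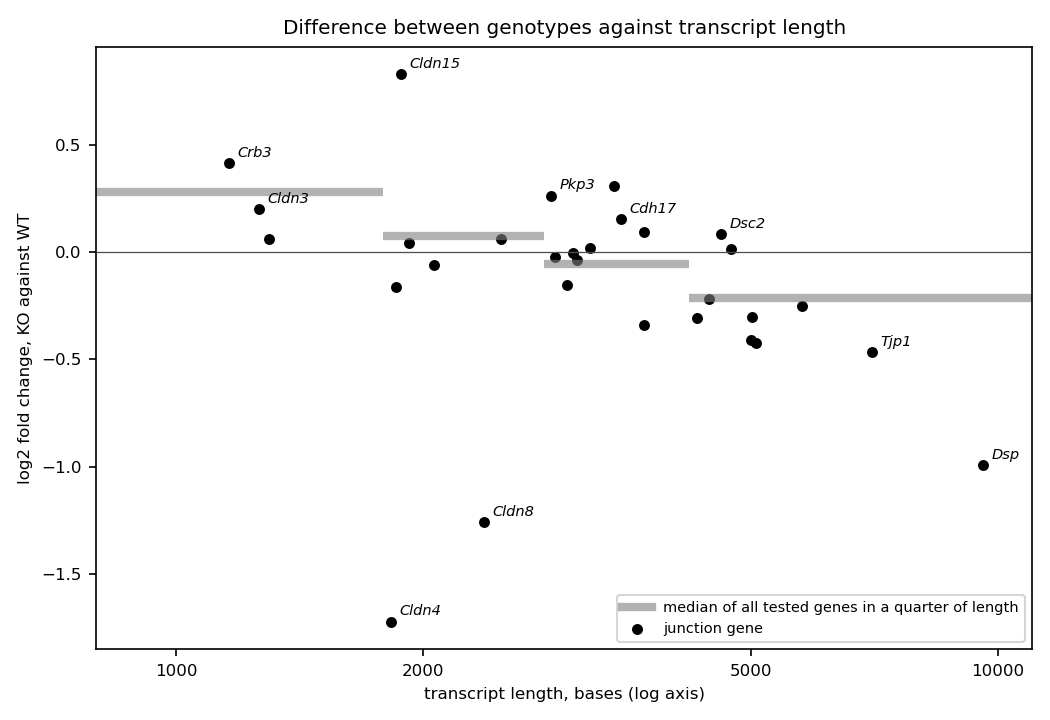
Log2 difference of KO from WT against transcript length in bases, on a log axis, with a point for each tested junction gene and grey bars for the median of all tested genes in each of the 4 length groups. The grey bars step down from 0.28 to -0.22, Dsp with the longest transcript lies below them, and Cldn15 lies above.

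With offsets for transcript length in the fit, an alternative chosen after seeing the data, the trend over all genes was -0.01. The difference of Dsp, whose transcript is 9592 bases long, shrank from -0.99 to -0.64 (SE 0.21, unadjusted p 0.0279, adjusted p 0.271 in edgeR). That of Cldn15, at 1878 bases, was 0.69 (SE 0.26, unadjusted p 0.0415, adjusted p 0.298 in edgeR). In levels adjusted in the same way, both KO libraries lay below WT in 7 of the 30 members: Cldn7, Marveld2, Cgn, Ctnna1, Ctnnd1, Dsp and Dsg2. They lay above WT in 4: Cldn15, Dsc2, Pkp3 and Pard3. The shares, 23.3% and 13.3%, stood beside 25.3% and 24.8% of all tested genes. The adjusted median log2 difference of the members was -0.09. The difference of Tjp1 became -0.23, that of Cdh1 -0.10 and that of Jup -0.25, and the adjusted levels of these 3 genes overlapped between the groups.

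Another 81 genes of the same contacts, not among the 33, were looked at in the same way, under 88 symbols because 7 genes were entered under an older and a newer name. Of these genes, 71 were listed and 50 tested. In edgeR 0 passed, and 6 (12%) had an unadjusted p under 0.05 beside 15.8% of all genes. DESeq2 called 3 of the 50, namely Amotl1, Cgnl1 and Cdh5, beside 5.03% of all genes. The estimate was positive in 16 and negative in 34, and both KO libraries lay above WT in 6 (12%) and below in 22 (44%), against 25.5% and 24.6% of all genes. Their median log2 difference was -0.28, and -0.10 with the length offsets. In levels adjusted for length, both KO libraries lay above WT in 9 (18%) and below in 17 (34%), against 24.8% and 25.3% of all genes.

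Amotl1, which codes for an angiomotin of tight junctions that binds Yap, had 17.3 and 5.45 CPM in WT against 0.205 and 0.136 in KO. The KO levels were close to the limit of listing, and the adjusted p was 0.105 in edgeR and 9.58e-08 in DESeq2. Cgnl1, which codes for paracingulin, had 22.6 and 4.93 CPM in WT against 1.57 and 0.477 in KO, with an adjusted p of 0.211 in edgeR and 0.00108 in DESeq2. WT replicate 1 exceeded WT replicate 2 by more than 3-fold in both genes. Cdh5, the cadherin of endothelium, had 35.6 CPM in WT replicate 1 and 0.649 CPM in WT replicate 2, and at most 0.0681 CPM in KO. The adjusted p of Cdh5 was 0.226 in edgeR and 0.0345 in DESeq2. Of the 13 listed endothelial markers 9 were highest in WT replicate 1, with a summed level of 57.7 CPM against 4.29 to 6.49 CPM elsewhere. Cdh5 itself is in that list, and without it the sums were 22.1 CPM in WT replicate 1 and 4.23 to 5.84 CPM elsewhere, with Pecam1 at 0.513 CPM in WT replicate 1. Of the 71 listed genes 12 were highest in WT replicate 1 by at least 3-fold, among them Amotl1, Cgnl1 and Cdh5. The part of these endothelial transcripts in the differences was not tested.

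Other scaffolds had smaller differences. Inadl, which codes for the Crumbs partner PATJ, had 153 and 139 CPM in WT against 89.9 and 108 in KO (log2 difference -0.57, SE 0.20, adjusted p 0.283 in edgeR). Magi1, a scaffold of tight junctions, had 70.3 and 73.3 CPM in WT against 54.6 and 53.0 in KO. Mllt4, which codes for afadin, had 177 and 164 CPM in WT against 120 and 143 in KO. These 3 genes have long transcripts, and with length offsets their log2 differences were -0.32, -0.14 and -0.11. Lima1, an actin-binding protein at alpha-catenin, had 514 and 444 CPM in WT against 313 and 396 in KO. Evpl, which codes for the desmosomal plakin envoplakin, had 43.4 and 82.5 CPM in WT against 39.4 and 34.3 in KO (log2 difference -0.77, SE 0.33). The desmosome genes next by p, Dsg4, Ppl and Pkp4, had log2 differences of -0.66, -0.30 and 0.11, each smaller than its SE, and their groups overlapped. Cldnd1, a claudin-like membrane protein and the gene of the further claudin list that was tested, had 59.5 and 49.2 CPM in WT against 79.8 and 67.1 in KO (log2 difference 0.43, SE 0.21).

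Pvrl2, which codes for nectin-2, an adhesion protein that afadin anchors, was the gene with an unadjusted p under 0.05 and a positive difference among these. It had 160 and 196 CPM in WT against 302 and 281 in KO, without overlap. The log2 difference was 0.71 (SE 0.23), with an unadjusted p of 0.0206 and an adjusted p of 0.263 in edgeR. Of the polarity genes, Pard6g had 1.99 and 1.62 CPM in WT against 0.0683 and 0.204 in KO, with an adjusted p of 0.208 in edgeR. Lin7c, a scaffold, had 147 and 115 CPM in WT against 94.5 and 92.5 in KO. The next by p lay on the other side. Scrib, a basolateral polarity scaffold, had 86.9 and 75.8 CPM in WT against 108 and 96.4 in KO, without overlap (log2 difference 0.33, SE 0.20). With length offsets its log2 difference was 0.52, with an unadjusted p of 0.0396 and an adjusted p of 0.294 in edgeR. Stk11, which codes for the kinase Lkb1, had 61.1 and 88.1 CPM in WT against 134 and 85.5 in KO, with overlap (log2 difference 0.56, SE 0.30). Ctnnb1, which codes for beta-catenin and was singled out after its values were seen as the partner of Cdh1, had 865 and 914 CPM in WT against 691 and 637 in KO (log2 difference -0.42, adjusted p 0.466 in edgeR). Per length, the ratio of Ctnnb1 to Cdh1 was 0.977 and 1.05 in WT and 0.904 and 0.866 in KO.

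Transcription factors and splicing regulators that act on junction genes were listed in 25 of 26 cases and tested in 19, and 0 passed in edgeR or DESeq2, with 2 (10.5%) at an unadjusted p under 0.05. Both KO libraries lay above WT in 4 of the 19 (21.1%) and below in 4 (21.1%). Over all tested genes these shares were 15.8%, 25.5% and 24.6%, so none of the 3 stood above the background. Klf4, a factor of differentiated epithelium, had 272 and 191 CPM in WT against 98.6 and 151 in KO. The KO libraries lay below WT, with a log2 difference of -0.89 (SE 0.31) and an adjusted p of 0.273 in edgeR. Klf5, a factor of proliferating crypt cells, had 382 and 353 CPM in WT against 283 and 235 in KO (log2 difference -0.51, SE 0.23). Grhl3, a grainyhead factor, had 5.90 CPM in WT replicate 1 and 0.205 to 0.908 CPM in the other libraries. Ovol2, a repressor of mesenchymal genes, had 12.4 and 12.8 CPM in WT against 23.1 and 14.8 in KO (log2 difference 0.59, SE 0.32). The following were named after their values were seen. Grhl2, a grainyhead factor that acts on Cdh1 and Cldn4, lay between 31.6 and 36.8 CPM. Of the repressors that bind the E-box, Zeb1 was at most 0.409 CPM and Zeb2 at most 0.449 CPM. Snai1 was at most 0.321 CPM, and Snai2 was not listed.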

How the data were processed

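Per the file headers, the deposited tables give RSEM expected counts per gene and library, and, in the same deposited tables, FPKM computed by the authors. Build mm10, RSEM 1.2.12 and Bowtie2 2.2.5 stand in the submitters' processing notes, with no role or order. Rows have an FPKM of 0.01 or more, so a missing gene is called not listed. The sources used here do not say whether libraries were stranded, and genes that overlap on opposite strands cannot be told apart.

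Tables were joined on gene identifiers, and 17721 of the 17762 were found in RefSeq GRCm38.p6, the source of coordinates. In each library 1 row without a gene, at most 0.000233% of the counts, was left out, and 25 symbols turned into dates were restored. Rounded expected counts were tested with the edgeR 4.0.16 quasi-likelihood test in R 4.3.3 (genotype as the only term, TMM factors of 0.9365 to 1.043, filterByExpr), with Benjamini-Hochberg adjustment over all 12769 genes. SE is the absolute log2 difference over the square root of F. The biological coefficient of variation was 32.5%. Alternatives used DESeq2 1.42.0 and limma 3.58.1. Length offsets were a loess of span 0.5 per library. The code was tested on simulated data.

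The members and lists were chosen with earlier results of these data known. All 33 members, Strap, the tissue markers and up to 4 genes of smallest p per further list were named. Sequences came from RefSeq.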

Additional observations from a re-analysis of the deposited data

How the results depend on the processing

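As in the reported test, 0 members passed with edgeR under DESeq2 size factors, under library size alone, without a filter, under a filter of 50 counts in 2 libraries or with length offsets, and 0 with limma on log2(FPKM + 1) and log2(FPKM + 0.1). DESeq2 called 1, Dsp. The log2 difference of Cldn4 ran from -2.52 without WT replicate 2 to 0.21 without WT replicate 1. Of the other junction genes DESeq2 called 4, where it called 5.03% of all genes. The fourth was Dsc3, which edgeR did not test and which was named after its values were seen. The members' median of -0.03 ranged from -0.164 to -0.00935 when each library was left out (-0.15 without WT replicate 1 and -0.16 without KO replicate 1). Relative to the summed epithelial markers it was 0.14, so its sign depends on the scaling. Of the 30 members 15 kept their sign in all 16 settings, Dsp and Cldn15 among them, and Cldn8 ran from -2.17 to 1.57, the latter without WT replicate 2. With 1 library left in a group, its spread is assumed to be that of the other group. The labels do not pair libraries of the same number, whose deviations had a correlation of -0.123. With the replicate block 0 members and 3 other junction genes were called, where 116 of all 12769 tested genes were called. With the crossed block these counts were 0 and 2, where 164 of all 12769 were called. The design has 2 libraries per group, and low genes such as Cldn1, Cldn8 and Cldn18 rest on few counts.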
